A study of Homo sapiens with 7 samples.

Results

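The mitochondrial ribosomal proteins are the nuclear-encoded proteins of the ribosome that works inside mitochondria. They were taken as every row of the deposited expression table whose gene symbol is MRPL or MRPS followed by a number and at most a letter from A to D. This rule found 78 genes among 60234, of which 49 carry a large-subunit symbol (MRPL) and 29 a small-subunit symbol (MRPS). The cells were cardiomyocytes made by small-molecule differentiation from WTC-11, an established line of human induced pluripotent stem cells, and were matured for 35 days. All were then given an antisense oligonucleotide (ASO, a synthetic strand that binds a complementary RNA) by passive uptake at 2 uM for 96 h, either a scrambled ASO (3 libraries) or an ASO against MYH7B (4 libraries). MYH7B is a myosin heavy chain gene whose transcript the study treats as a long noncoding RNA. No untreated cells were analysed here, all libraries come from 1 cell line, and the labels do not say whether replicates are separate differentiations, so p-values measure only the spread between these libraries.

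The mitochondrial ribosome translates the few membrane proteins of the respiratory chain and ATP synthase that mitochondrial DNA encodes, on a scaffold of rRNA that is also made in the mitochondrion. Its proteins are all made in the cytosol from nuclear genes and imported. They comprise a core shared with bacterial ribosomes and further proteins that mitochondria added around it. Heart muscle, which lives on oxidative phosphorylation, depends on this translation, and inherited defects in several of these proteins, among them MRPL3, MRPL44 and MRPS22, are known causes of cardiomyopathy.

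Values are TPM, an abundance per length, relative to all transcripts of a library, as deposited. MYH7B, the ASO target, had 23, 36.5 and 25.1 TPM in scrambled ASO replicates 1 to 3 and 9.3, 5.65 and 6.31 TPM in MYH7B ASO replicates 2 to 4. The column of MYH7B ASO replicate 1 (1.29 TPM) is out of register with the gene names. It was put back in order through the gene list of an annotation release and is given only beside the comparison of 3 libraries with 3. Transcripts encoded in mitochondrial DNA took 27.4% to 33.6% of TPM in those 6 libraries and 17.2% in replicate 1. TPM keeps no sequencing depth, so the spread between libraries is the measure of error. Among the markers of cell types, the 8 cardiomyocyte genes summed to 8153 to 10735 TPM in the 6 libraries, with TNNT2, the cardiac troponin T gene, at 933 to 1324 TPM. The 8 fibroblast markers summed to 1354 to 5245 TPM and the 4 smooth muscle markers to 543 to 1330 TPM, given by library further below. The 4 endothelial markers summed to 7.61 to 10.4 TPM and the 4 pluripotency markers to 1.49 to 2.87 TPM, with NANOG and SOX2 under 1 TPM throughout.

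All 78 genes were expressed at a mean of at least 1 TPM, so none was lost to the filter on low values. With the scrambled ASO their means ran from 7.81 TPM (MRPL50) to 132 TPM (MRPS24), a ratio of 16.9, with a median of 34.2 TPM and quartiles of 21.8 and 49.9 TPM. The median was 34.1 TPM for genes with a large-subunit symbol and 36.8 TPM for those with a small-subunit symbol. A level of 20 TPM or more was found for 63 of the 78, and 100 TPM or more for 3. Transcript levels thus spread widely among genes whose proteins are built into the same particle.

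The genes with the highest means over the 6 libraries were MRPS24, MRPL51, MRPS6, MRPL41 and MRPL20. MRPS24, the counterpart of the bacterial protein that lines the path by which mRNA enters the small subunit, had 117, 121 and 157 TPM with the scrambled ASO and 154, 141 and 136 TPM with the MYH7B ASO. MRPL51, a large-subunit protein that bacteria lack, had 109, 137 and 148 TPM against 131, 132 and 114 TPM. MRPS6, a protein of the small-subunit platform, had 118, 109 and 137 TPM against 124, 136 and 118 TPM. The groups overlapped for these 3 genes, and their means lie within each other's spread, so no order among them holds. MRPL20, a large-subunit protein that helps fold rRNA, had 93.2, 85.9 and 112 TPM with the scrambled ASO and 107 to 130 TPM with the MYH7B ASO (0.31, limma adjusted p = 0.377). At the other end, MRPS14 and MRPS17, both conserved small-subunit proteins, and MRPL50, a large-subunit protein specific to mitochondria, had the lowest means. MRPL50 stood at 7.85, 6.97 and 8.59 TPM with the scrambled ASO and at 11.5, 7.59 and 11.2 TPM with the MYH7B ASO. MRPS17 had 10.7, 9.64 and 11.2 TPM against 10.9, 12.1 and 9.07 TPM. Levels across the set went together closely in both groups. Over the 78 genes the log2 means of the groups had a Pearson r of 0.967, a description of genes measured in the same libraries. Exons of MRPS24 and MRPS6 overlap those of URGCP-MRPS24 and SLC5A3 on the same strand, and exons of MRPL51 overlap those of NCAPD2 on the opposite strand. How shared reads were divided, and whether strand was used, is not stated, so part of their levels is uncertain.

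No mitochondrial ribosomal protein gene passed the test between the ASO groups. Changes are differences in mean log2(TPM + 1), MYH7B ASO minus scrambled ASO, tested with limma over 15988 genes and called at an adjusted p under 0.05. Of the 78 genes 0 were called higher, where 0.181% of all tested genes were (29), and 0 were called lower, where 1.48% were (236). In either direction 1.66% of all tested genes were called (265), and 53 without MYH7B ASO replicate 4. After median-ratio rescaling between libraries the calls were 58 higher and 213 lower, again with 0 of the 78 genes. At an unadjusted p under 0.05 there were 7 of the 78 (4 higher, 3 lower), which is 8.97% against 15.2% of all tested genes. The smallest limma adjusted p was 0.177, for MRPL41.

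The changes were small. They ran from -0.41 to 0.49 with a median of 0.10 and quartiles of -0.05 and 0.21, where the median of all tested genes was -0.04. All 78 lay within 0.5 of no change, as did 77.3% of all tested genes. A positive change was found for 55 of 78 genes (70.5%), against 45.2% of all tested genes. The median standard error was 0.17 and the median 95% interval reached 0.39 to each side. For 77 genes that interval stayed between -1 and 1. The exception was MRPL40, a protein of the large subunit's central protuberance, with 6.84, 18.9 and 16.7 TPM against 17.2, 16.9 and 16.1 TPM and an interval from -0.40 to 1.08. Its width goes with scrambled ASO replicate 1, the single low library.

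**Figure D1:**
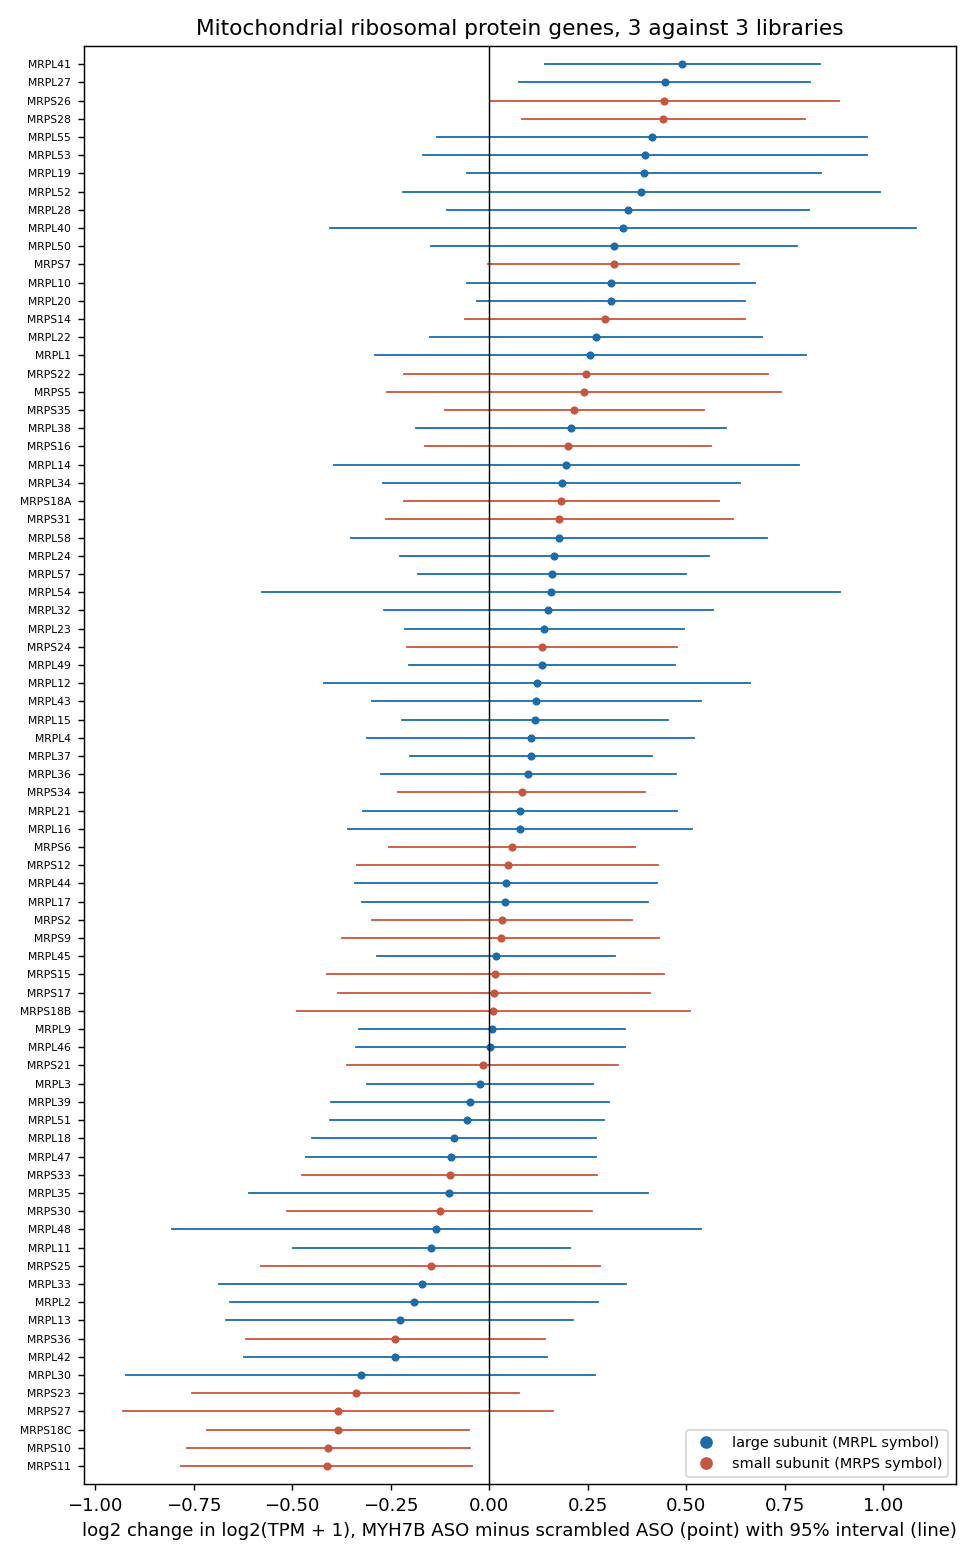
Log2 change in log2(TPM + 1), MYH7B ASO minus scrambled ASO (horizontal axis), for the 78 genes sorted by change (vertical axis), with points for the fitted change and lines for its 95% interval, blue for large-subunit and red for small-subunit symbols. The points run from -0.41 to 0.49, and for 77 genes the interval stays between -1 and 1.

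The largest positive changes were those of MRPL41, MRPL27, MRPS26, MRPS28 and MRPL55. MRPL41, a large-subunit protein without a bacterial counterpart, had 81.1, 95.8 and 101 TPM with the scrambled ASO and 147, 133 and 112 TPM in MYH7B ASO replicates 2 to 4. Every one of these MYH7B ASO libraries lay above every scrambled ASO library. The means were 92.6 ± 10.2 TPM and 131 ± 17.5 TPM (SD, n = 3 each), a change of 0.49 (standard error 0.15, limma adjusted p = 0.177). The reordered replicate 1 had 75.8 TPM, below all the scrambled ASO libraries, and with it the change was 0.30.

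MRPL27, a conserved protein that reaches towards the peptidyl transferase centre where peptide bonds form, had 31.1, 36.4 and 38.7 TPM against 57, 44.9 and 44.2 TPM. Here too the groups did not overlap, and replicate 1, at 40.6 TPM, lay above the scrambled ASO libraries. The change was 0.45 (standard error 0.16, limma adjusted p = 0.237). MRPS26, a small-subunit protein of mitochondria, had 18.4, 25.7 and 28.7 TPM against 36.6, 33.4 and 29 TPM, with 40.3 TPM in replicate 1. Its change was 0.44 (standard error 0.19, limma adjusted p = 0.326), and the lowest MYH7B ASO library stood just above the highest scrambled ASO library. Without scrambled ASO replicate 1 it was 0.27.

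MRPS28, related to the bacterial protein S1, had 20.2, 25.6 and 20.8 TPM against 31.3, 32.5 and 27.7 TPM, a change of 0.44 (standard error 0.16, limma adjusted p = 0.23). These groups did not overlap either, but replicate 1 had 13.7 TPM, below all other libraries. MRPL55, the counterpart of the bacterial protein L31, had 21.8, 13.1 and 23.7 TPM against 29.7, 26.4 and 21.3 TPM. Its groups overlapped, and the change of 0.41 had a standard error of 0.24 (limma adjusted p = 0.464). Without scrambled ASO replicate 2, the lowest library, it was 0.16.

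The largest negative changes were all in genes with a small-subunit symbol. MRPS11, a protein of the platform near the mRNA exit, had 17.8, 17.6 and 17.2 TPM with the scrambled ASO and 13.5, 11 and 14.5 TPM with the MYH7B ASO. The scrambled ASO libraries lay close together and above the others, except that the reordered replicate 1 had 19.8 TPM, the highest value. Means were 17.6 ± 0.349 TPM and 13 ± 1.8 TPM (SD, n = 3 each), a change of -0.41 (standard error 0.16, limma adjusted p = 0.275). MRPS10, a protein of the small-subunit head, had 19.5, 21.3 and 19.5 TPM against 14.3, 13.4 and 17.1 TPM, with 10.8 TPM in replicate 1. Every MYH7B ASO library, replicate 1 included, was below every scrambled ASO library, and the change was -0.41 (standard error 0.16, limma adjusted p = 0.267).

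MRPS18C, 1 of 3 mitochondrial relatives of the bacterial protein S18, had 45.1, 46 and 48.6 TPM against 39.9, 35.9 and 31.1 TPM, with 13.1 TPM in replicate 1. The groups did not overlap with or without that library, and the change over the other 6 was -0.38 (standard error 0.14, limma adjusted p = 0.259). MRPS27, an RNA-binding protein with pentatricopeptide repeats, had 46.8, 23.3 and 29 TPM against 24.5, 24.1 and 23.6 TPM. The change of -0.38 had a standard error of 0.24 (limma adjusted p = 0.497), and scrambled ASO replicate 1 alone stood far above the rest. The change was -0.11 without that library and -0.60 without scrambled ASO replicate 2. MRPS23, a small-subunit protein of mitochondria, had 44.2, 68.3 and 56 TPM against 47.9, 39.9 and 43.2 TPM, with overlapping groups and a change of -0.34 (limma adjusted p = 0.427), which was -0.19 without scrambled ASO replicate 2.

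**Figure D2:**
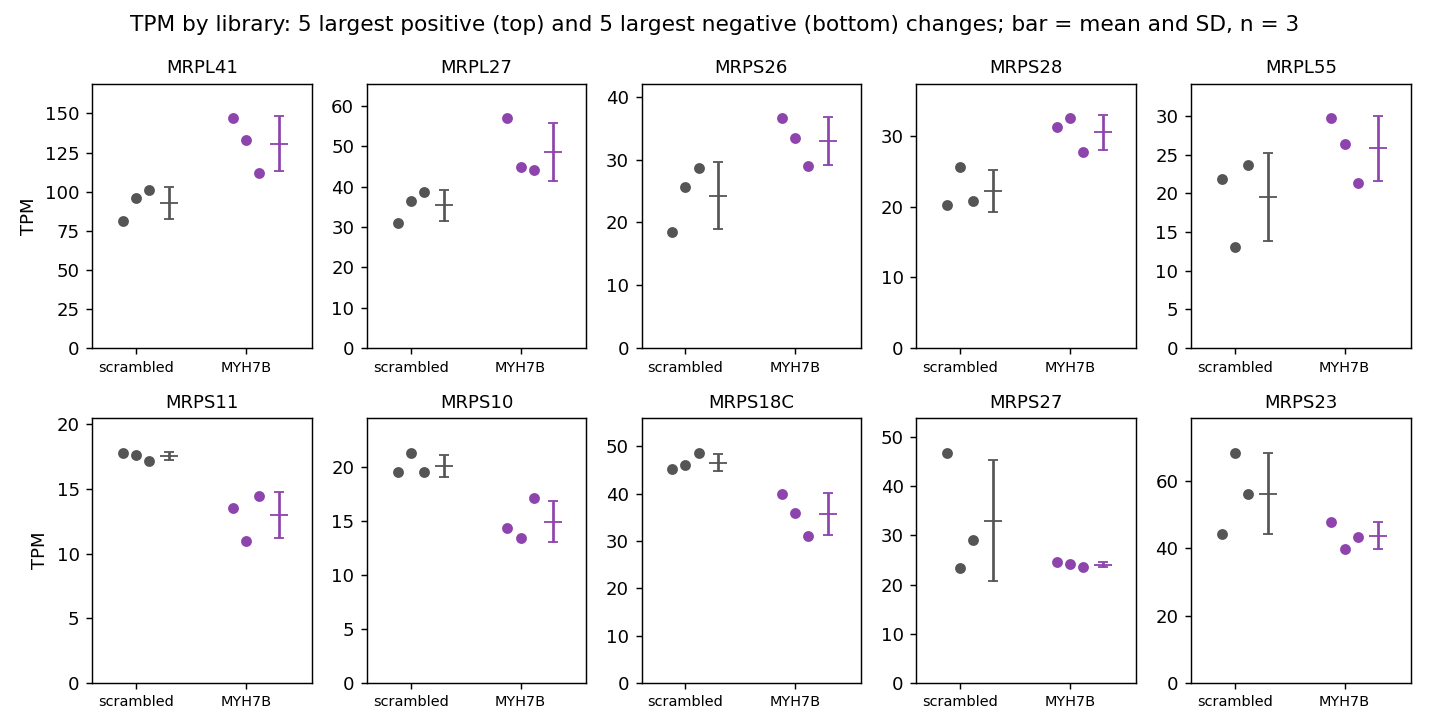
TPM by library (vertical axes, each from 0) for the genes with the 5 largest positive changes (top row) and the 5 largest negative changes (bottom row), with points for the 3 scrambled ASO libraries (grey) and MYH7B ASO replicates 2 to 4 (purple), and bars for mean and SD. The groups are apart for MRPL41, MRPL27, MRPS26, MRPS28, MRPS11, MRPS10 and MRPS18C, and overlap for MRPL55, MRPS27 and MRPS23.

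Groups that did not overlap were counted over all 78 genes. In 8 (10.3%) every MYH7B ASO library was above every scrambled ASO library, against 7.11% of all tested genes, and in 3 (3.85%) every one was below, against 14.1%. Beside the 4 already given, the higher ones were MRPS35, MRPS14, MRPS7 and MRPL10. MRPS35, a small-subunit protein of mitochondria, had 28.2, 34.5 and 34.5 TPM against 37.2, 38.7 and 37 TPM (0.22, limma adjusted p = 0.53). With the reordered replicate 1 added, 3 genes stayed apart on the higher side (MRPL27, MRPS26 and MRPL10), where 4.7% of tested genes did, and 2 on the lower side (MRPS10 and MRPS18C), where 10.2% did. The authors' deposited table, made by their own comparison, gives an adjusted p under 0.05 for 1 of the 78 genes, MRPL41 (log2 fold change 0.52, standard error 0.14, adjusted p 0.00626), where it does so for 8.71% of all genes with an adjusted p (3.02% on the higher side). Over the 78 genes the median fold change in the authors' deposited table was 0.14 on the log2 scale, 59 were above 0, and 74 had the sign found here.

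In promoters of the set the ETS and YY1 motifs, described below, were more frequent than in promoters of expressed protein-coding genes, a difference not tested. For this reason the start regions of 4 of these genes are printed. Each holds 250 bases before to 50 after the start RefSeq lists first, on GRCh38.p14, read 5′ to 3′ along the gene. Capitals mark the motif letters that were found. They were chosen after values were seen: MRPL27 and MRPS26 had positive changes and MRPS10 a negative one, and MRPL36, a large-subunit protein with a zinc-binding site, holds matches to 3 different motifs.
MRPL27 at chr17:50373135-50373434, minus strand, and MRPS26 at chr20:3045802-3046101, plus strand, are followed by MRPS10 at chr6:42217812-42218111, minus strand, and MRPL36 at chr5:1799788-1800087, minus strand.
MRPL27: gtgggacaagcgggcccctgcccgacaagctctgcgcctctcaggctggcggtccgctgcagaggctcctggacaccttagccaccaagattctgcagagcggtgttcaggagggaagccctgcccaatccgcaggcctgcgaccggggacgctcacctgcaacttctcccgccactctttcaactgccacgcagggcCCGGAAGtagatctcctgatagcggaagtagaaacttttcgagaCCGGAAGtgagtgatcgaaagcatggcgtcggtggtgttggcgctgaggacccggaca
MRPS26: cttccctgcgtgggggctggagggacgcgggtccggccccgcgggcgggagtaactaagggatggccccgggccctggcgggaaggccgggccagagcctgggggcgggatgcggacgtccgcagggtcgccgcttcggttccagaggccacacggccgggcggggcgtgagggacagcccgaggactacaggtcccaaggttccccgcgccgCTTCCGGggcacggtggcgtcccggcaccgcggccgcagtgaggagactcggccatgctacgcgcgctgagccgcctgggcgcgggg
MRPS10: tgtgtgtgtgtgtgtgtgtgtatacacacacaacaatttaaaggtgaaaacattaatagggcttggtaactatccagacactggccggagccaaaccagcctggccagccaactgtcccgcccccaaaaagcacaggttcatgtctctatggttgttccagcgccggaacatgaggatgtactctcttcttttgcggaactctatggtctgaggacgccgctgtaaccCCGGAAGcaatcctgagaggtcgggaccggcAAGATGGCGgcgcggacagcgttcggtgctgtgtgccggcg
MRPL36: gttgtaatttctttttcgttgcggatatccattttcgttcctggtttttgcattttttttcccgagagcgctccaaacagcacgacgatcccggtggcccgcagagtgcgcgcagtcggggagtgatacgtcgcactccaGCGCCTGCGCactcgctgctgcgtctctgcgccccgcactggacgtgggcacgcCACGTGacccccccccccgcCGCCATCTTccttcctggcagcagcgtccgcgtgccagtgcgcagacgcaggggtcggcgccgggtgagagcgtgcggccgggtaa

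MRPL27 carries the ETS motif CCGGAAG, the site bound by GABPA (nuclear respiratory factor 2), at 52 and at 8 bases before the start, and MRPS26 carries it on the opposite strand at 37 bases before. MRPS10 has it at 22 bases before the start and the YY1 motif AANATGGCG at base 10 after it. In MRPL36 the motif of NRF1 (nuclear respiratory factor 1) matches on the opposite strand at 110 bases before the start, the E-box CACGTG at 56 and the YY1 motif on the opposite strand at 36. A promoter was found for 69 of the 78 genes, leaving MRPL2, MRPL10, MRPL13, MRPL15, MRPL21, MRPL23, MRPL35, MRPS28 and MRPS36. Searched on both strands, the ETS motif was in 42% of the 69, against 10.7% of 27305 promoters of all genes and 19.1% of 10215 promoters of expressed protein-coding genes. For the YY1 motif the shares were 26.1%, 3.37% and 6.89%. The NRF1 motif was in 11.6%, 6.28% and 11.7%, close to expressed genes in general, and the E-box in 8.7%, 7.43% and 10%. None of the 4 motifs was found in 30.4% of the 69, against 60.9% of promoters of expressed protein-coding genes. Both the NRF1 and the ETS motif were in 2 genes, MRPL30 and MRPS33. These are matches of letters, which say nothing of a factor's presence.

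Changes were set beside the presence of each motif, with no test of the difference. The median change was 0.12 for the 29 genes with the ETS motif and 0.10 for the 40 without, 0.12 with the YY1 motif and 0.08 without, 0.10 with the E-box and 0.11 without, and 0.03 with the NRF1 motif (8 genes) and 0.12 without. With 7 libraries the NRF1 medians were -0.06 and 0.06.

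Genes were also read by role, from lists that need not hold every protein of a region. Those listed near the catalytic parts of the large subunit showed no common direction. Of the 4 genes around the peptidyl transferase centre, MRPL27 and MRPL16 (0.08) had positive and MRPL2 (-0.19) and MRPL3 (-0.02) negative changes, with MRPL3 at 0.04 after median-ratio rescaling. MRPL3 had 47.7, 49.6 and 52.4 TPM with the scrambled ASO and 48, 49.6 and 49.6 TPM with the MYH7B ASO, and its interval ran from -0.31 to 0.26. The 3 genes listed for the stalk, where translation factors bind, had a median change of 0.12. MRPL10, which anchors the stalk, had 54.6, 52.8 and 55.1 TPM against 80.8, 67.8 and 55.8 TPM, a change of 0.31 (standard error 0.16, limma adjusted p = 0.409) that was 0.18 without MYH7B ASO replicate 2. MRPL12, the stalk protein that also binds the mitochondrial RNA polymerase, had 32.3, 50.5 and 62.2 TPM against 58.8, 47.1 and 47.5 TPM. Its scrambled ASO libraries spanned the whole range of the others, and its change was 0.12. MRPL11, at the stalk's base, had a change of -0.15.

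At the exit of the tunnel, where new peptides meet the inner membrane, the 8 genes listed had a median change of 0.04. MRPL45, which ties the ribosome to that membrane, had 35.7, 38.3 and 41.3 TPM against 39.1, 39.3 and 38.2 TPM, a change of 0.02. MRPL23, a conserved tunnel protein, had 31.1, 33.7 and 40.2 TPM against 42.5, 35.9 and 37.3 TPM, a change of 0.14. MRPL44, a relative of RNase III, had 19, 17.9 and 21.8 TPM against 21.9, 21.9 and 17 TPM, a change of 0.04. All 3 pairs of groups overlapped. The 6 genes listed for the central protuberance had a median of 0.09. Among them MRPL58, a peptidyl-tRNA hydrolase that frees stalled ribosomes, had 19.7, 11.6 and 17.7 TPM against 17.9, 22.3 and 15.1 TPM, a change of 0.18.

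In the small subunit, the 3 genes listed for the decoding centre and mRNA entry all had positive changes: MRPS12 0.05, MRPS24 0.13 and MRPS5 0.24. MRPS12, the decoding protein, had 20.8, 16.9 and 20.7 TPM against 23.3, 18.8 and 18.4 TPM. The 4 genes listed for the head were split, with MRPS10 at -0.41, MRPS9 at 0.03, MRPS14 at 0.29 and MRPS7 at 0.32. They are not the whole head: DAP3, for example, is given further below. MRPS7, which binds rRNA early in assembly, had 46.2, 48.7 and 54.2 TPM against 68.9, 59.4 and 58.1 TPM, with groups apart and a limma adjusted p of 0.331. MRPS14 had 11, 13.4 and 12 TPM against 15.9, 14.8 and 14.5 TPM (limma adjusted p = 0.421). The genes listed for the platform had a median change of -0.20, made up of MRPS11 at -0.41, MRPS18C at -0.38, MRPS21 at -0.02 and MRPS6 at 0.06. MRPS22, a small-subunit protein of mitochondria linked to cardiomyopathy, had 20.5, 31.5 and 32 TPM against 36.9, 33.1 and 28.9 TPM, a change of 0.25 (standard error 0.20, limma adjusted p = 0.609) that was 0.04 without scrambled ASO replicate 1.

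The 3 relatives of bacterial S18 did not share a change. MRPS18A had 25.5, 29.7 and 36 TPM against 34.8, 30.1 and 38.5 TPM (0.18), and MRPS18B had 54.3, 85.7 and 55.4 TPM against 67.7, 75.2 and 51.8 TPM (0.01), beside the -0.38 of MRPS18C. Only MRPS18C is the S18 of the platform. MRPS18A sits in the large subunit despite its symbol, as does MRPS30, which had 32.4, 37.2 and 25.8 TPM against 28.6, 26.9 and 30.8 TPM (-0.13). MRPS36, which was later found to belong to the 2-oxoglutarate dehydrogenase complex and not to the ribosome, had 59.1, 55.4 and 53 TPM against 40.7, 43.9 and 58.5 TPM (-0.24, limma adjusted p = 0.553). Genes with a bacterial homolog (48) had a median change of 0.09 and those with none listed (30) of 0.11.

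By symbol, the median change was 0.12 over the 49 large-subunit genes, 36 of them positive, and 0.03 over the 29 small-subunit genes, 19 of them positive. The summed level of the MRPL genes was 1876, 1933 and 2223 TPM with the scrambled ASO and 2346, 2231 and 2007 TPM with the MYH7B ASO. That of the MRPS genes was 1126, 1242 and 1300 TPM against 1281, 1244 and 1203 TPM. The groups overlapped in both sums. The means were 2011 ± 186 and 2194 ± 172 TPM for MRPL and 1223 ± 88.3 and 1243 ± 39.3 TPM for MRPS genes (SD, n = 3 each). These are sums by symbol and not of the subunits themselves. The MRPS sum holds MRPS18A, MRPS30 and MRPS36, and proteins without an MRP symbol, such as DAP3, are in neither.

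The ratio of the MRPS to the MRPL sum was 0.600, 0.643 and 0.585 with the scrambled ASO and 0.546, 0.558 and 0.599 with the MYH7B ASO. Those groups overlapped by 1 library on each side. In replicate 1 the ratio was 0.542. The whole set summed to 3233 ± 265 TPM with the scrambled ASO and 3437 ± 211 TPM with the MYH7B ASO (SD, n = 3 each), or 0.3% to 0.363% of a library. With the mitochondrially encoded transcripts taken out of each library's total, the sums were 4695 ± 193 and 5089 ± 277 TPM. Replicate 1, with its lower mitochondrial share, had 3053 TPM before and 3705 TPM after that step, the latter below all 6 other libraries.

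**Figure D3:**
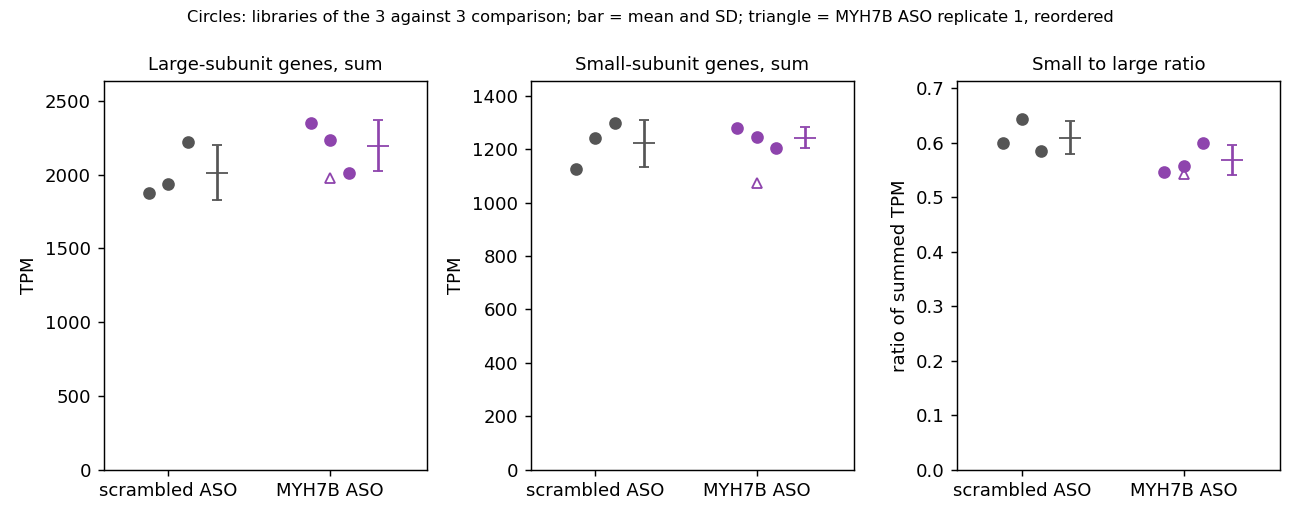
Summed TPM of the 49 genes with a large-subunit symbol (left), of the 29 with a small-subunit symbol (middle) and the ratio of the small to the large sum (right), by ASO group, with circles for the libraries of the comparison, bars for mean and SD, and an open triangle for the reordered MYH7B ASO replicate 1. Genes are grouped by symbol and not by place in the ribosome. The groups overlap in each panel, and the ratio runs from 0.546 to 0.643 over the circles.

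Single libraries were the lowest or highest for many of these genes. The same counts were not made over all tested genes. Scrambled ASO replicate 1 was the lowest of the 6 libraries for 31 of the 78 genes, scrambled ASO replicate 2 for 21 and scrambled ASO replicate 3 for 5. MYH7B ASO replicates 2, 3 and 4 were the lowest for 5, 5 and 11. MYH7B ASO replicate 2 was the highest for 25 and scrambled ASO replicate 3 for 21. Without scrambled ASO replicate 1 the median change of the 78 genes was 0.03, and without MYH7B ASO replicate 2 it was 0.04. The reordered replicate 1 was below MYH7B ASO replicates 2 to 4 for 39 genes and above them for 21, and with it in the fit the median was 0.03 and 43 genes were positive.

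The cytosolic ribosomal proteins and the nuclear-encoded subunits of the respiratory chain were set beside these genes. Of 85 tested cytosolic ribosomal protein genes 27 had a positive change, where 45.2% of all tested genes did, and the median was -0.03. By limma 1 was called lower, where 1.48% of all tested genes were. That gene was RPL35, a protein of the cytosolic large subunit, with 2074, 2409 and 3146 TPM against 1136, 1144 and 1031 TPM (change -1.18, limma adjusted p = 0.0121). Of 76 tested respiratory chain genes 51 had a positive change, with a median of 0.07, and 0 were called by limma. At an unadjusted p under 0.05 there were 9 (11.8%), against 15.2% of all tested genes. Groups were apart in 13 on the higher and 4 on the lower side, where 7.11% and 14.1% of all tested genes were. The authors' deposited table called 5 of the 76 higher and 2 lower, and 0 and 1 of the 85 cytosolic genes. It did so for 8.71% of all genes with an adjusted p, and for 3.02% on the higher side. The difference between the lists was not tested.

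**Figure D4:**
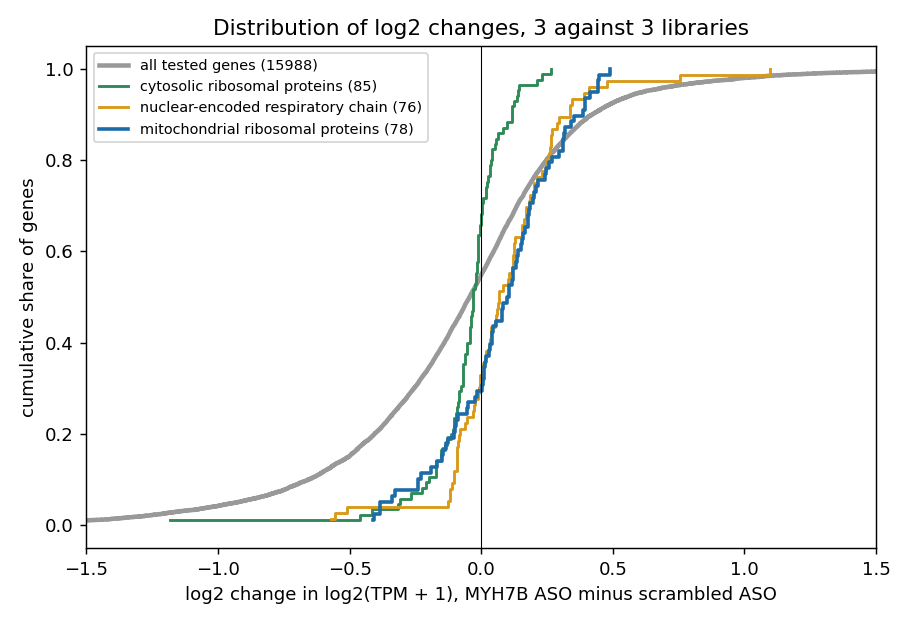
Cumulative share of genes (vertical axis) by log2 change in log2(TPM + 1), MYH7B ASO minus scrambled ASO (horizontal axis, shown from -1.5 to 1.5), for the 78 mitochondrial ribosomal protein genes, 76 respiratory chain genes, 85 cytosolic ribosomal protein genes and 15988 tested genes. The lists are narrower than all genes, with medians of 0.10, 0.07, -0.03 and -0.04 in that order.

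The rest of the mitochondrial translation pathway was read from lists of its factors. In the limma fit 0 of these genes were called. The authors' deposited table has an adjusted p under 0.05 for LARS2, GATB and VARS2 of 22 genes that charge tRNAs. It also has this for PPARGC1A and MYC of 12 regulators of mitochondrial biogenesis, and for 0 genes of the other lists. Among all genes with an adjusted p the share is 8.71%. The 5 mitochondrial ribosomal proteins without an MRP symbol had a median change of -0.14. Among them DAP3, the GTP-binding protein of the small-subunit head, had 54.5, 49.4 and 59.6 TPM against 48.7, 41.9 and 36.2 TPM. Its groups were apart, with a change of -0.36 and a standard error of 0.16 (limma adjusted p = 0.32). The other small-subunit proteins had changes of -0.33 (PTCD3), -0.14 (CHCHD1) and 0.21 (AURKAIP1), and GADD45GIP1 of the large subunit had 0.26. The ribosomal RNAs themselves had changes of 0.16 (MT-RNR1) and 0.08 (MT-RNR2), measured in poly-A selected RNA.

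The 17 translation factors had a median change of 0.02, with TUFM, the elongation factor that delivers tRNAs, at 64.5, 88 and 84.3 TPM against 87.4, 83.9 and 78.5 TPM (0.09). The 27 genes of ribosome assembly and rRNA modification had a median of 0.08, and 3 (11.1%) were under an unadjusted p of 0.05, all lower. Of all tested genes 15.2% were under it (2435, of which 1688 were lower). METTL17, which is needed to build the small subunit, had 13.7, 17.1 and 16 TPM against 11.2, 11.2 and 7.66 TPM (-0.60, limma adjusted p = 0.197). YBEY, an RNA-processing enzyme of the small subunit, had a change of -0.47 (limma adjusted p = 0.265), and TFB1M, which methylates its rRNA, of -0.57 (limma adjusted p = 0.278).

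The 22 genes that charge mitochondrial tRNAs had a median of -0.08. At an unadjusted limma p under 0.05 there were 4 (18.2%, 1 higher and 3 lower), against 15.2% of all tested genes. LARS2, the leucyl-tRNA synthetase, had 8.1, 8.23 and 8.93 TPM against 5.18, 3.69 and 2.94 TPM, a change of -0.96 (standard error 0.22, limma adjusted p = 0.0803). VARS2, the valyl-tRNA synthetase, had 11.7, 10.8 and 12 TPM against 17.6, 16.3 and 17.5 TPM, a change of 0.54 (limma adjusted p = 0.134). Both pairs of groups were apart, in opposite directions. In the authors' deposited table the log2 fold changes were -0.83 for LARS2 (adjusted p 4.51e-04), 0.57 for VARS2 (0.00669) and -0.64 for GATB, a subunit of the enzyme that makes glutaminyl-tRNA (0.0393). The 26 genes of mitochondrial DNA transcription and RNA processing had a median of -0.01, with LRPPRC, which keeps mitochondrial mRNAs stable, at 56, 37 and 30.5 TPM against 29.3, 20.6 and 24.8 TPM (-0.67, limma adjusted p = 0.23). The 12 mitochondrial proteases and chaperones had a median of 0.10.

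Of 12 regulators of mitochondrial biogenesis 11 had a negative and 1 a positive change, where 45.2% of all tested genes were positive, with a median of -0.28. In 5 the groups were apart on the lower side, where 14.1% of all tested genes were. At an unadjusted limma p under 0.05 there were 2 (16.7%), against 15.2% of all tested genes. PPARGC1A, the coactivator that drives mitochondrial gene programmes, had 11.4, 16.3 and 16.2 TPM against 5.49, 6.97 and 7.58 TPM. Every scrambled ASO library was above every MYH7B ASO library, and the change of -1.02 had a standard error of 0.20 (limma adjusted p = 0.0541), just over the threshold. In the reordered replicate 1 it had 2.05 TPM. MYC, a growth regulator, had 6.26, 6.76 and 11.1 TPM against 3.89, 4.29 and 3.61 TPM (-0.84, limma adjusted p = 0.148), but 13 TPM in replicate 1. The authors' deposited table gives log2 fold changes of -0.86 for PPARGC1A (adjusted p 3.07e-04) and -0.71 for MYC (adjusted p 0.0179). For the factors whose motifs were searched, the changes were -0.11 for GABPA, -0.24 for YY1 and -0.32 for NRF1, with limma adjusted p from 0.454 to 0.799.

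Markers of other cells differed between the groups in the same libraries. The 8 fibroblast markers summed to 2901, 3052 and 5245 TPM with the scrambled ASO and to 1738, 2084 and 1354 TPM with the MYH7B ASO, with 4141 TPM in replicate 1. Among them 2, COL1A2 and LUM, were called lower, where 1.48% of all tested genes were. A negative change was found for 7 of the 8, where 45.2% of all tested genes had a positive one. The exception, PDGFRA, had 19.8, 27.8 and 23.5 TPM against 41.1, 32.9 and 34.8 TPM, a change of 0.60 (limma adjusted p = 0.152). The authors' deposited table has an adjusted p under 0.05 for 4 of the 8 on the lower side and for PDGFRA on the higher side (log2 fold change 0.61, adjusted p 0.00287). Over all genes with an adjusted p the share is 8.71%, with 3.02% on the higher side. The 4 smooth muscle markers summed to 964, 934 and 1330 TPM against 543, 723 and 643 TPM, with 1075 TPM in replicate 1. MYH11 was called lower, where 1.48% of all tested genes were, while CNN1 had a positive change (0.24, limma adjusted p = 0.454). TAGLN and ACTA2 had changes of -1.24 and -0.91 (limma adjusted p = 0.0649 and 0.091), with groups apart over the 6 libraries. In the authors' deposited table MYH11, TAGLN and ACTA2 have an adjusted p under 0.05, all on the lower side. The 8 cardiomyocyte markers summed to 9610, 10735 and 10299 TPM against 10302, 8258 and 8153 TPM, with 0 called by limma. Of these 6 of 8 had a negative change, with a median of -0.36. At an unadjusted p under 0.05 there were 4 (50%), all lower, against 15.2% of all tested genes in either direction. MYH7, the slow myosin heavy chain, had 962 ± 371 and 394 ± 159 TPM, and RYR2, the calcium release channel, 34.1 ± 5.95 and 16.3 ± 3.32 TPM (SD, n = 3 each; limma adjusted p = 0.148 and 0.0536). RYR2 has an adjusted p of 2.32e-04 in the authors' deposited table. In bulk RNA, fewer cells of a type and less RNA per cell cannot be told apart, and the part of these markers in the values above was not tested.

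The genes are short, with a median span of 11937 bp against 33495 bp for expressed protein-coding genes, and lie on 21 chromosomes. Change and span went together over all 15852 tested genes with a span (Spearman rho -0.31, across genes of the same libraries) and over the 78 (-0.27). Tested genes were put in 4 equal bins of span. Up to 8802 bp their median change was 0.09, and above 70455 bp it was -0.25. Of the 78 genes, 35 fell in the shortest bin, with a median of 0.13, 24 in the next (-0.03, where all tested genes had 0.05), 13 in the third (0.11, against -0.08) and 6 in the longest (0.06). The part of gene length in the values was not tested.

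A start shared with a neighbour read the other way was frequent in the set. A protein-coding gene that begins within 1000 bp upstream on the opposite strand, or overlaps the start by up to 200 bp, was found for 19 of the 78 genes (24.4%), against 11.5% of expressed protein-coding genes. MRPS11 (chr15:88467453-88480773) and MRPL46 (chr15:88459476-88467419), on GRCh38 in GENCODE 29, form such a pair, with starts 34 bp apart. MRPL46, of the central protuberance, had 17.4, 17.4 and 15.6 TPM with the scrambled ASO and 18.1, 16.8 and 15.6 TPM with the MYH7B ASO, a change of 0.00 beside the -0.41 of MRPS11. In the same annotation MRPL36 starts 34 bp from NDUFS6, a subunit of complex I (changes 0.10 and 0.25), and MRPL47 starts 36 bp from NDUFB5, another (-0.10 and 0.04). That start of MRPL36 lies 1529 bp upstream of the RefSeq start whose region is printed above, so the printed sequence is not the stretch between MRPL36 and NDUFS6. MRPL43 overlaps TWNK, the mitochondrial DNA helicase. Of the 17 partners outside the set, 15 were tested, 0 were called by limma (1 at an unadjusted p under 0.05), and their median change was 0.04.

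Exons of 41 of the 78 genes overlap those of another gene, in 30 cases 1 at a mean of at least 1 TPM, and 34 have a pseudogene in the table (75 pseudogenes, 7 of them at 1 TPM or more). Reads of such genes may have been divided in ways that are not stated. Among the small-subunit symbols given above, MRPS11 overlaps AC013489.3, MRPS18C ABRAXAS1, MRPS27 PTCD2, MRPS7 GGA3 and MIF4GD, MRPS22 COPB2, MRPS14 CACYBP, MRPS17 NIPSNAP2, MRPS12 SARS2, MRPS5 ZNF514 and MRPS18A RSPH9. Among the large-subunit symbols, MRPL20 overlaps AL391244.1, MRPL2 KLC4, MRPL11 PELI3, MRPL47 ACTL6A, MRPL30 AC092587.1 and MRPL43 SEMA4G and TWNK. The 43 genes without an expressed overlap or expressed pseudogenes had a median change of 0.11, with 33 positive.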

How the data were processed

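The deposited expression table holds TPM, made by the authors for 60234 genes in 7 columns; the aligner, the counting tool and the use of strand are not given in the sources used here. Per the submitters' processing notes, GRCh38.p13 and DESeq2 were used. The authors' deposited comparison table holds log2 fold changes (shrunken, as its name says) with standard errors, a mean normalized signal per gene, p-values before and after adjustment, and a score for the test. The libraries behind it are not stated.

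The column of MYH7B ASO replicate 1 fills 58721 positions, as many as GENCODE 29 lists genes. With those identifiers sorted and assigned in turn, its median correlation with the other libraries went from 0.408 to 0.955 (0.959 to 0.979 among the others). It entered only the alternatives with 7 libraries.

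Genes that averaged 1 TPM or more were tested on log2(TPM + 1) with limma 3.58.1 (lmFit, eBayes with trend) in R 4.3.3, 3 libraries against 3, with no covariate and Benjamini-Hochberg adjustment over 15988 genes. Fold changes on this scale understate the change of low genes. The script was tested on simulated data. Tables and plots used matplotlib 3.10.9, numpy 2.4.6 and pandas 2.3.3 in Python 3.11.15. Gene positions are those of GENCODE 29, and start regions are RefSeq's for GRCh38.p14.

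The genes, the lists and the tests were chosen with earlier results of these data known. Genes given with values were the 5 largest changes in each direction, the 5 highest and 3 lowest means, any gene called by limma or in the authors' deposited table, and genes of fixed roles. MRPL40, MRPS35, MRPL46, MRPL36, RPL35, GATB, MYH7, RYR2, the printed start regions and the other genes named by role were chosen after values were seen. Alternatives were other pseudocounts, filters, scalings, variance settings, sample weights, replicate blocks, 7 libraries, and each library left out in turn.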

Additional observations from a re-analysis of the deposited data

Results flagged for a closer look

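Among the 4 MYH7B ASO libraries, the reordered replicate 1 stood far from the others for 2 genes. MRPL3 had 39.5 TPM there, against 48 to 49.6 TPM in replicates 2 to 4, and MRPL45 had 24 TPM, against 38.2 to 39.3 TPM. A library counted as far when its gap to the nearest other library, divided by the whole range of the 4, passed Dixon's limit. In all, 33 measures were examined, and chance flags about 1 in 20. Both flags fall in the library whose column was reordered and which is not part of the comparison of 3 libraries with 3.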

How the results depend on the processing

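No mitochondrial ribosomal protein gene was called by limma in any of 20 fits, and the smallest limma adjusted p was 0.0538, after median-ratio rescaling (7 genes at an unadjusted p under 0.05 in the fit reported, 0 to 10 in the others). The number of all genes called, 265 as reported, was 40 with no filter on low values, 150 without the variance trend, 170 with 7 libraries and 53 to 149 with 1 library left out (97 without scrambled ASO replicate 1, 149 without scrambled ASO replicate 2, 133 without scrambled ASO replicate 3, 107, 116 and 53 without MYH7B ASO replicates 2, 3 and 4). Of those calls 29 were higher and 236 lower, 58 and 213 after median-ratio rescaling and 55 and 202 after quantile normalization. The median change of the 78 genes was 0.10 as reported, 0.03 to 0.14 with a library left out, and 0.17 after median-ratio rescaling, where that of all genes was 0.01.

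No label says that replicate numbers pair the libraries. Libraries with the same title number had deviations with correlations of 0.08 and 0.11, the 2 highest of 9 (the others -0.07 to 0.04), and of 0.02, 0.14 and 0.02 with 7 libraries. For the numbers of the descriptions they were -0.07 and -0.04. The numbers were therefore treated as shared labels only. With the replicate block by title number 0 genes were called (1718 at an unadjusted p under 0.05), by description number 0 (1096), and by title number with 7 libraries 0 (1773). In such fits a library with no partner of the same number adds nothing to the change. The change then rests on the few pairs that share a number, which leave little to measure the spread. The 0 calls therefore decide nothing about the genes. With 7 libraries not every library correlated best with its own number. The blocked medians of the 78 genes were 0.09, -0.02 and 0.07. The cause of the differences between these medians was not tested.

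Of the 30 genes given by rule, 16 kept their direction in every fit. The sign turned after median-ratio rescaling for MRPL51 (0.01) and MRPL3 (0.04). With 7 libraries it turned for MRPS6 (-0.15), MRPS17 (-0.05), MRPL50 (-0.04), MRPL44 (-0.05), MRPL45 (-0.15) and MRPS18B (-0.03). Under the title-number replicate block it turned for MRPL12 (-0.09), MRPL45 (-0.02) and MRPS18A (-0.01), and with 7 libraries in that block for MRPS6 (-0.19), MRPL50 (-0.21) and MRPL45 (-0.20). With the block by description number it turned for MRPL44 (-0.03), MRPS22 (-0.04), MRPL12 (-0.24), MRPL45 (-0.04), MRPS12 (-0.01), MRPS18B (-0.14) and MRPL23 (-0.01). The changes of the blocked fits rest on the few pairs of libraries that share a number.

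With 1 library left out, the ranges of genes whose sign turned were MRPL12 (-0.14 to 0.32), MRPL45 (-0.03 to 0.07), MRPS18B (-0.10 to 0.22), MRPS6 (-0.01 to 0.15), MRPS17 (-0.08 to 0.12), MRPL44 (-0.02 to 0.16), MRPL58 (-0.04 to 0.32), MRPS12 (-0.06 to 0.11), MRPL51 (-0.18 to 0.04) and MRPL3 (-0.06 to 0.01). Without a turn of sign, values moved by over 1.5 times for genes such as MRPL23 (0.06 to 0.24), MRPS18A (0.07 to 0.31), MRPS24 (0.05 to 0.27), MRPS30 (-0.26 to -0.01), MRPS36 (-0.39 to -0.14) and MRPL50 (0.22 to 0.49), and for the genes whose values the report gives. Depth is unknown for TPM, so 3 libraries a group set the limit: the median 95% interval reached 0.39 to each side.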
